A study of Mus musculus with 36 samples.

Results

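The MHC class II genes described here are the 7 genes H2-Aa, H2-Ab1, H2-Eb1, Cd74, Ciita, H2-DMa and H2-DMb1, chosen by their symbols among the 18691 gene names listed for the lungs of 36 mice. All 7 were listed in both count tables, one of female and one of male mice. The mice were wild-type C57BL/6, 8 weeks old at the start, with 3 female and 3 male mice in each of 6 treatment groups. Controls received saline, and the other groups received crude oil of the Macondo well spill, a chemical dispersant (Corexit 9527 or Corexit 9500), or a dispersant together with oil (9527+oil or 9500+oil). Doses of 50 µL went to the airways at day 0, day 7 and day 13, and lungs were taken at day 14. Except in controls, each dose came from a buffer mixed with the oil, the dispersant or both, and was used at a dilution of 0.1. Per the methods, the saline phase was taken for oil alone, and the other mixtures were used without separation. The labels describe instillation into the trachea and a water-accommodated fraction, whereas the methods describe oropharyngeal aspiration and a saline-accommodated one. The 2 sexes were treated separately, so sex and treatment session cannot be told apart. RNA came from the whole left lung, which holds several class II bearing cell types at once.

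MHC class II molecules carry peptides of ingested proteins to the cell surface, where CD4+ T cells read them. An alpha and a beta chain form each molecule. H2-Aa and H2-Ab1 encode the chains of I-A, and H2-Eb1 encodes the beta chain of I-E. The gene of the I-E alpha chain, H2-Ea, was not analysed, so H2-Eb1 RNA does not show whether these mice made I-E. Cd74, the invariant chain, blocks the peptide groove and guides the new molecule to the endosome. There H2-DMa and H2-DMb1 encode the chains of H2-DM, which releases the remnant of the invariant chain and lets a peptide bind. Ciita is the transactivator that switches the whole group on. In the lung, dendritic cells, B cells and macrophages are the usual sources of class II, and alveolar type 2 cells also make it.

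H2-Aa, H2-Ab1, H2-Eb1, H2-DMa and H2-DMb1 lie in the MHC region of chromosome 17 in the GRCm38 build, between the start of H2-DMa at 34119541 and the end of H2-Eb1 at 34316674, and are annotated as protein-coding in GENCODE M21. Class II genes share a promoter layout in which an X box stands a short way before a Y box, the sites on which the RFX and NF-Y complexes gather with Ciita. The 150 bases before the start of H2-Aa and of H2-Eb1 are shown because they display this layout in the genes of 2 different chains. Both come from RefSeq (GRCm38.p6) and run 5′ to 3′ on the strand of the gene, at chr17:34287824-34287973 (minus strand) and chr17:34305717-34305866 (plus strand). Capitals mark letters of the Y box core GATTGG, the X box forms GCAAC and AACNNATG and the cyclic AMP element TGACGTCA.
H2-Aa: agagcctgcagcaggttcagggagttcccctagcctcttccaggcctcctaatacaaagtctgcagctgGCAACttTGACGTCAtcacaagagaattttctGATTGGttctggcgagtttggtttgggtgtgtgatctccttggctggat
H2-Eb1: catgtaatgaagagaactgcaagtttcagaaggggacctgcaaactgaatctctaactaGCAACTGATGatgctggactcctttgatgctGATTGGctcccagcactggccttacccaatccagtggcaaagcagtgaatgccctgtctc

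In H2-Aa the X form GCAAC begins 81 bases, the cyclic AMP element 74 bases and the Y box core 49 bases before the start. In H2-Eb1 the 2 X forms overlap and begin 91 and 89 bases before the start, and the Y box core begins 60 bases before it. The Y box core is also found on the opposite strand of H2-Eb1, 35 bases before the start. H2-DMb1 holds the X form AACNNATG at 92 bases and the Y box core at 62 bases. On the gene's strand, either X form stood at most 45 bases ahead of a Y box core within 250 bases of the start in 3 of the 4 members with a window (H2-Aa, H2-Eb1 and H2-DMb1), and in neither of the 2 windows of H2-DMa. It did so in 0.381% of the 32851 windows of all genes. Taken singly and on either strand, the letters are common: 29.9% of windows held GCAAC, 14.6% GATTGG, 7.71% AACNNATG and 1.55% TGACGTCA. The table used had no window for H2-Ab1, Cd74 and Ciita. These matches describe the letters only.

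Between 17501180 and 30011557 counts were assigned to genes in each library. Each treatment was compared with saline of the same sex by edgeR's quasi-likelihood test, with p-values adjusted by the Benjamini-Hochberg method over all genes tested, and a gene was called at an adjusted p under 0.05. Nothing in the labels says more of the mice than that they are separate animals, 3 per group. In 4 female libraries mitochondrial genes took 20.67% to 45.09% of counts, against 5.27% to 11.34% in the other 32. They were saline mouse 3, oil mouse 6, Corexit 9527 mouse 11 and 9500+oil mouse 14. The same 4 had few counts on GC-rich genes, with a log2 ratio of GC-rich to GC-poor genes of -2.58 to -1.93 against -0.56 to 0.33. Female results are therefore given with and without them. No male library was among them.

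The remaining 2 genes lie elsewhere, Ciita on chromosome 16 (10480059 to 10528418, plus strand) and Cd74 on chromosome 18 (60803848 to 60812652, plus strand). Levels are given in CPM, the count of a gene scaled to a common library size, after TMM scaling. In male saline mice the level per kilobase of the principal transcript was 1098 ± 10.2 CPM for Cd74 (SD, n = 3), 323 ± 10.4 for H2-Aa, 319 ± 20.2 for H2-Ab1 and 138 ± 2.91 for H2-Eb1. It was 34.3 ± 3.09 for H2-DMb1, 31 ± 2.87 for H2-DMa and 7.13 ± 0.598 for Ciita. The invariant chain thus stood above the alpha and beta chains per length, the chains above H2-DM, and the transactivator lowest, with H2-Aa beside H2-Ab1 and H2-DMa beside H2-DMb1 within their spread. Over the 18 male mice the highest library had 1.56 times (H2-Aa) to 1.99 times (H2-DMa) the lowest. Over all 22 comparisons, 0 of the 7 genes were called in edgeR's test. DESeq2's Wald test called members in 2 comparisons, oil and Corexit 9527 in male mice, and limma's voom with sample quality weights in 0.

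In male mice given oil all 7 genes had a higher fitted level than with saline, with a median log2 fold change of 0.44 against -0.01 over all genes tested. For 6 of the 7, every oil mouse lay above every saline mouse, where 7.44% of all genes did so, and the same 6 had an unadjusted p under 0.05, where 8.21% of all genes did so in either direction. None was called at an adjusted p under 0.05, and 0.00671% of all genes were. In DESeq2's test 3 of the 7 were called, H2-Ab1 (adjusted p = 0.00808), Cd74 (adjusted p = 0.00202) and H2-DMb1 (adjusted p = 0.042), with 1.25% of all genes. The 7 genes are not independent readings. Over the 18 male mice the correlations of their pairs ran from 0.18 (H2-Eb1 with H2-DMa) to 0.94 (H2-Aa with H2-Eb1). In whole lung RNA a larger number of class II cells and more RNA per cell cannot be told apart.

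H2-Aa had 377, 363 and 354 CPM in male saline mice 1, 2 and 3 and 486, 431 and 411 CPM in oil mice 4, 5 and 6. The groups did not overlap, and the log2 fold change was 0.28 ± 0.10 (SE, unadjusted p = 0.019, edgeR adjusted p = 0.49). H2-Ab1 had 375, 369 and 414 CPM with saline and 564, 537 and 479 CPM with oil. All 3 oil mice were above the highest saline mouse, with a log2 fold change of 0.44 ± 0.10 (edgeR adjusted p = 0.315). H2-Eb1 had 234, 234 and 225 CPM with saline and 310, 280 and 248 CPM with oil, a log2 fold change of 0.27 ± 0.10 (edgeR adjusted p = 0.53). Oil mouse 4 was the highest of the 3 oil mice for each of these chains.

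Cd74, the most abundant of the group, had 1563, 1546 and 1534 CPM in male saline mice, within a narrow span. It had 2427, 2003 and 2053 CPM in the oil mice, a log2 fold change of 0.48 ± 0.10 (unadjusted p = 0.00116, edgeR adjusted p = 0.256). H2-DMa, the alpha chain of the peptide editor, had 54.4, 45.9 and 53.8 CPM with saline and 79.4, 60.9 and 79.3 CPM with oil. H2-DMb1, its beta chain, had 53.1, 46.3 and 45.1 CPM with saline and 74.8, 57.5 and 73.7 CPM with oil. Both H2-DM genes had a log2 fold change of 0.51, with an SE of 0.13 for H2-DMa and 0.12 for H2-DMb1 (edgeR adjusted p = 0.319 for each). Oil mouse 5 was the lowest oil mouse for both and still above the saline mice.

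Ciita differed from the other 6 in that its groups overlapped. It had 45.5, 44.3 and 38.8 CPM in male saline mice and 54.4, 45.4 and 44.2 CPM in oil mice, with a log2 fold change of 0.16 ± 0.12 (edgeR adjusted p = 0.8). The difference between Ciita and the other genes was not tested. Leaving out each of the 6 mice in turn kept the log2 fold change of all 7 above 0, from 0.07 to 0.22 for Ciita and from 0.39 to 0.53 for Cd74.

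**Figure D1:**
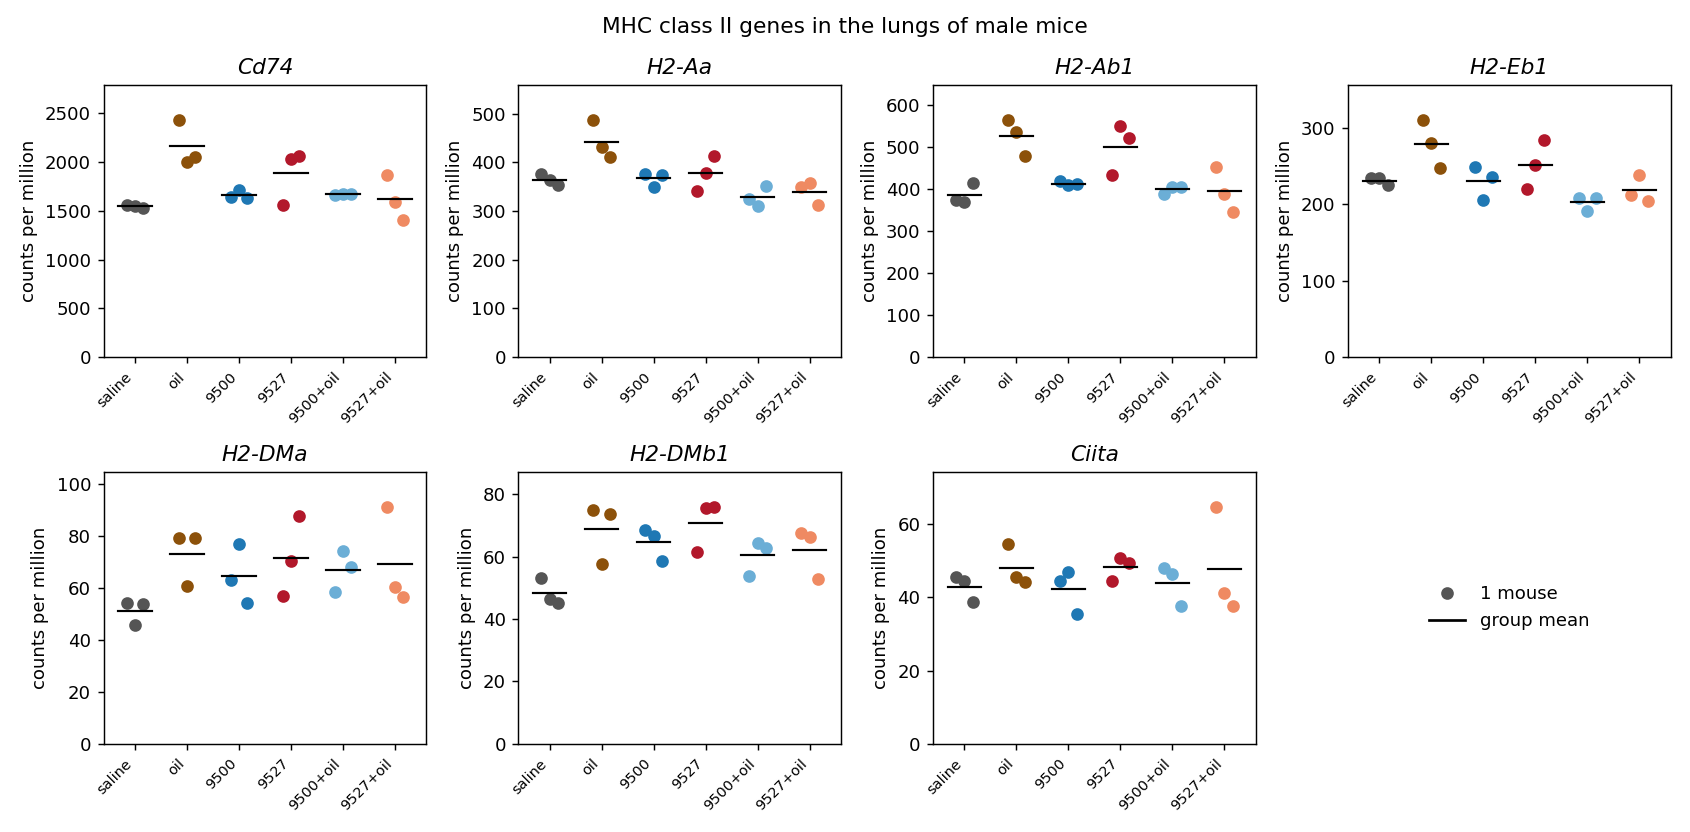
Level of each MHC class II gene in CPM (vertical axes from 0) in each of the 18 male mice by treatment, with a line at the group mean. In the oil group the points of every gene but Ciita lie above those of saline, and the points of H2-DMa lie above those of saline in all 5 treated groups.

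With Corexit 9527, male mice also had a higher fitted level than with saline for all 7 genes, with a median log2 fold change of 0.29 against -0.01 over all genes (0.16 for the members with voom's quality weights). Of the 7, 4 had an unadjusted p under 0.05 (13.7% of all genes did) and 3 had every treated mouse above every saline mouse (10.5% of all genes did). None was called at an adjusted p under 0.05, and 0.114% of all genes were. DESeq2 called 2 of them, H2-Ab1 (adjusted p = 0.0436) and H2-DMb1 (adjusted p = 0.00383), with 3.93% of all genes. One edgeR fit over all 6 male groups called 1, H2-DMb1 (adjusted p = 0.0401), with 1.83% of all genes.

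H2-DMb1 had 61.3, 75.4 and 75.8 CPM in Corexit 9527 mice 10, 11 and 12 of the male table. All 3 were above the highest saline mouse at 53.1 CPM, and the log2 fold change of 0.56 ± 0.12 had the lowest adjusted p of any member over the 22 edgeR comparisons fitted on the compared groups alone with TMM scaling (edgeR adjusted p = 0.107). H2-DMa had 57.1, 70.4 and 87.9 CPM, a log2 fold change of 0.48 ± 0.16 (edgeR adjusted p = 0.23). H2-Ab1 had 433, 551 and 521 CPM, a log2 fold change of 0.38 ± 0.12 (edgeR adjusted p = 0.203). The 3 genes without overlap were thus both chains of the peptide editor and the beta chain of I-A.

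The partner of H2-Ab1 did not show the same separation. H2-Aa had 341, 379 and 414 CPM with Corexit 9527, around the saline values of 354 to 377 CPM, and its log2 fold change was 0.05 ± 0.10 (edgeR adjusted p = 0.872). H2-Eb1 had 220, 252 and 284 CPM, a log2 fold change of 0.13 ± 0.11 (edgeR adjusted p = 0.662). Cd74 had 1563, 2031 and 2064 CPM, so that Corexit 9527 mouse 10 equalled the highest saline mouse to the nearest unit while the other 2 mice were above it (log2 fold change 0.29 ± 0.13, unadjusted p = 0.0488, edgeR adjusted p = 0.358). Ciita had 44.3, 50.7 and 49.4 CPM, a log2 fold change of 0.17 ± 0.11 (edgeR adjusted p = 0.533). Corexit 9527 mouse 10 had the lowest level of the 3 mice for every one of the 7 genes.

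With Corexit 9500, the median log2 fold change of the 7 genes in male mice was 0.10, and 5 were higher and 2 lower than with saline. H2-DMa, H2-DMb1 and Cd74 had every treated mouse above every saline mouse, where 6.35% of all genes did. H2-DMb1 and H2-DMa had an unadjusted p under 0.05, as did 6.35% of all genes. None of the 7 was called, and 0.00662% of all genes were. H2-DMb1 had 68.6, 66.5 and 58.5 CPM in Corexit 9500 mice 7, 8 and 9, a log2 fold change of 0.42 ± 0.10 (unadjusted p = 0.00293, edgeR adjusted p = 0.688). H2-DMa had 63.1, 76.9 and 54.4 CPM, a log2 fold change of 0.33 ± 0.13 (edgeR adjusted p = 0.782) that was 0.20 without mouse 8. The lowest of these levels equalled the highest saline mouse to 3 digits. The other H2 genes stayed near the saline level, with log2 fold changes of 0.01 ± 0.08 for H2-Aa, 0.10 ± 0.09 for H2-Ab1 and -0.01 ± 0.10 for H2-Eb1. Cd74 was at 0.10 ± 0.08 and Ciita at -0.02 ± 0.12.

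With 9500+oil, the genes of the group went different ways in male mice. Cd74, H2-DMa and H2-DMb1 had every treated mouse above every saline mouse (7.84% of all genes did), whereas H2-Aa and H2-Eb1 had every treated mouse below every saline mouse (7.6% of all genes did). H2-DMa, H2-DMb1 and H2-Eb1 had an unadjusted p under 0.05, where 9.22% of all genes did. None of the 7 and 0% of all genes were called. H2-DMa had 58.6, 74.5 and 68.2 CPM in 9500+oil mice 13, 14 and 15, a log2 fold change of 0.38 ± 0.12 (edgeR adjusted p = 0.506). H2-DMb1 had 53.9, 64.3 and 62.8 CPM, a log2 fold change of 0.32 ± 0.11 (edgeR adjusted p = 0.506). Cd74 had 1664, 1676 and 1675 CPM, close together and just above saline, a log2 fold change of 0.11 ± 0.08 (edgeR adjusted p = 0.677).

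The 2 genes below saline with 9500+oil were H2-Eb1 and H2-Aa. H2-Eb1 had 209, 192 and 208 CPM against at least 225 CPM with saline, a log2 fold change of -0.19 ± 0.08 (unadjusted p = 0.0461, edgeR adjusted p = 0.536). H2-Aa had 325, 311 and 352 CPM against at least 354 CPM, a log2 fold change of -0.15 ± 0.09 (edgeR adjusted p = 0.608). H2-Ab1 was at 0.05 ± 0.09 and Ciita at 0.04 ± 0.12.

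With 9527+oil, only H2-DMa had every treated male mouse above every saline mouse, where 5.73% of all genes did. H2-DMa and H2-DMb1 had an unadjusted p under 0.05, where 5.54% of all genes did. None of the 7 was called, and 0.00669% of all genes were. H2-DMa had 91.2, 60.6 and 56.6 CPM in 9527+oil mice 16, 17 and 18, a log2 fold change of 0.44 ± 0.19 (edgeR adjusted p = 0.885) that was 0.18 without mouse 16. H2-DMb1 had 67.4, 66.4 and 52.8 CPM, with 9527+oil mouse 18 inside the saline range, a log2 fold change of 0.37 ± 0.13 (edgeR adjusted p = 0.885). Mouse 16 had 64.5 CPM of Ciita, the highest of the 18 male mice, while its neighbours had 41 and 37.7 CPM. The log2 fold changes were -0.11 ± 0.10 for H2-Aa, 0.04 ± 0.12 for H2-Ab1, -0.08 ± 0.09 for H2-Eb1, 0.07 ± 0.12 for Cd74 and 0.16 ± 0.20 for Ciita. Without mouse 16 the median of the 7 genes was -0.06, against 0.07 with it, and H2-Ab1 (-0.08), Cd74 (-0.06) and Ciita (-0.13) were below 0.

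**Figure D2:**
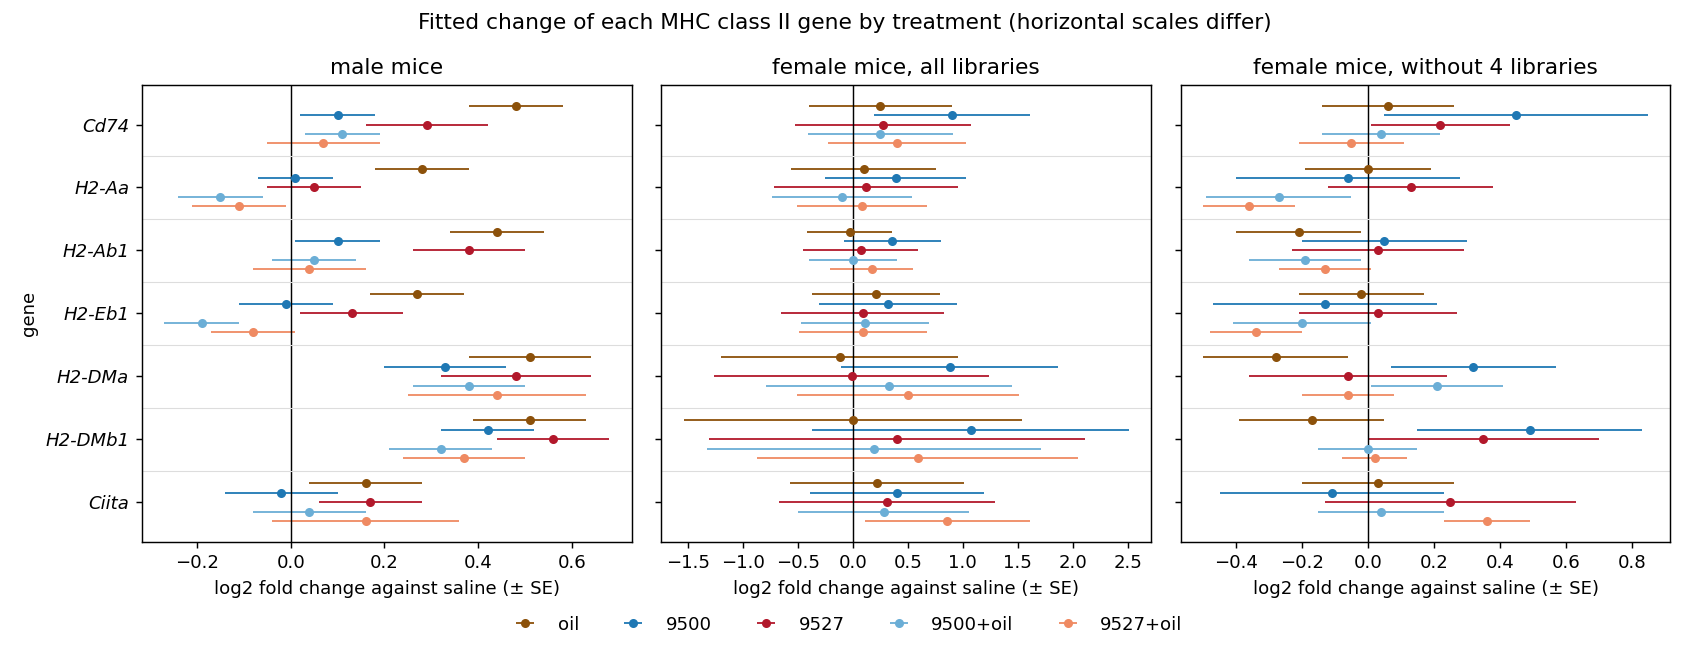
Log2 fold change of each of the 7 genes against saline (horizontal axes, whose scales differ) with its SE, by treatment, in male mice, in female mice with all libraries and in female mice without the 4 libraries with a mitochondrial share over 20%. In male mice the H2-DMa and H2-DMb1 points lie between 0.32 and 0.56 for every treatment (H2-DMa at 0.18 with 9527+oil without mouse 16 and at 0.20 with Corexit 9500 without mouse 8) while H2-Aa and H2-Eb1 spread around 0 except with oil, and in female mice with all libraries the error bars span 0 for most genes.

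The 5 comparisons share the same 3 male saline mice, so their values stand side by side and are not independent. For H2-DMb1 the log2 fold change was 0.56 in the Corexit 9527 group, 0.51 in the oil group, 0.42 in the Corexit 9500 group, 0.37 in the 9527+oil group and 0.32 in the 9500+oil group. For H2-Aa it was 0.05, 0.28, 0.01, -0.11 and -0.15 in the same order. H2-DMb1 has a near-identical neighbour, H2-DMb2, and the counting could split reads between them. The sum of the pair was 77.5 ± 15.1 CPM in male saline mice (SD, n = 3) against 104 ± 11 CPM after Corexit 9527, 105 ± 12.7 after oil, 97.1 ± 11.1 after Corexit 9500, 92.9 ± 14.9 after 9527+oil and 93.8 ± 9.49 after 9500+oil. On the log2 scale the sum was higher than saline by 0.43, 0.44, 0.32, 0.26 and 0.27 in that order. The summed groups overlapped saline in every case, since saline mouse 1 had 41.5 CPM of H2-DMb2 against 20 and 26.5 CPM in the other 2 saline mice.

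The balance of H2-DM to I-A was also read within each library, a measure that needs no scaling. Since it was chosen after the values above were seen, and the treated groups share the same 3 saline mice, it is given as a description with no test. In male saline mice the H2-DMb1 count was 14.1%, 12.7% and 12.7% of the H2-Aa count. It was 18.2%, 19% and 15.6% in mice given Corexit 9500, and 18%, 19.9% and 18.3% in those given Corexit 9527. It was 16.6%, 20.7% and 17.8% in mice given 9500+oil, and 19.3%, 18.6% and 17% in those given 9527+oil. All 12 of these mice were above the highest saline mouse. With H2-DMb2 added to H2-DMb1, an alternative chosen after seeing the data, saline ran from 18.3% to 25.1% and Corexit 9500 from 22.5% to 29.2%, with mouse 9 inside the saline range, while the other 3 dispersant groups stayed above it, from 25.3% to 33.1%. For H2-DMb1 alone the oil mice were at 15.4%, 13.3% and 17.9%, which overlapped saline. Relative to H2-Ab1, the other I-A chain, not all of the 12 dispersant mice were above saline. Corexit 9527 mouse 11 (1552 counts of H2-DMb1 and 11340 of H2-Ab1) and 9500+oil mouse 13 (1125 and 8133) were below saline mouse 1 (1068 and 7538).

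The other chain of H2-DM had a wider spread. The H2-DMa count was 12.6% to 15.2% of the H2-Aa count in male saline mice, 16.7% to 21.2% with Corexit 9527, 18% to 23.9% with 9500+oil and 17% to 26.2% with 9527+oil, each group above saline. Corexit 9500 (14.6% to 22%) and oil (14.1% to 19.3%) overlapped saline. The Cd74 count ran from 414% to 433% of the H2-Aa count with saline. It lay above that range in all 5 treated groups, from 436% in a Corexit 9500 mouse to 538% in a 9500+oil mouse. Relative to H2-Ab1 this separation did not hold. Corexit 9527 mouse 10 (31209 counts of Cd74 and 8652 of H2-Ab1) was below saline mouse 3 (34001 and 9181). The H2-Ab1 count was 99.4% to 117% of the H2-Aa count with saline and 126% to 145% with Corexit 9527, while the other treated groups overlapped saline. The H2-Eb1 count stayed between 58.8% and 68.6% of the H2-Aa count in all 18 male mice, and of the 5 treatments Corexit 9527 alone put every mouse above saline.

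**Figure D3:**
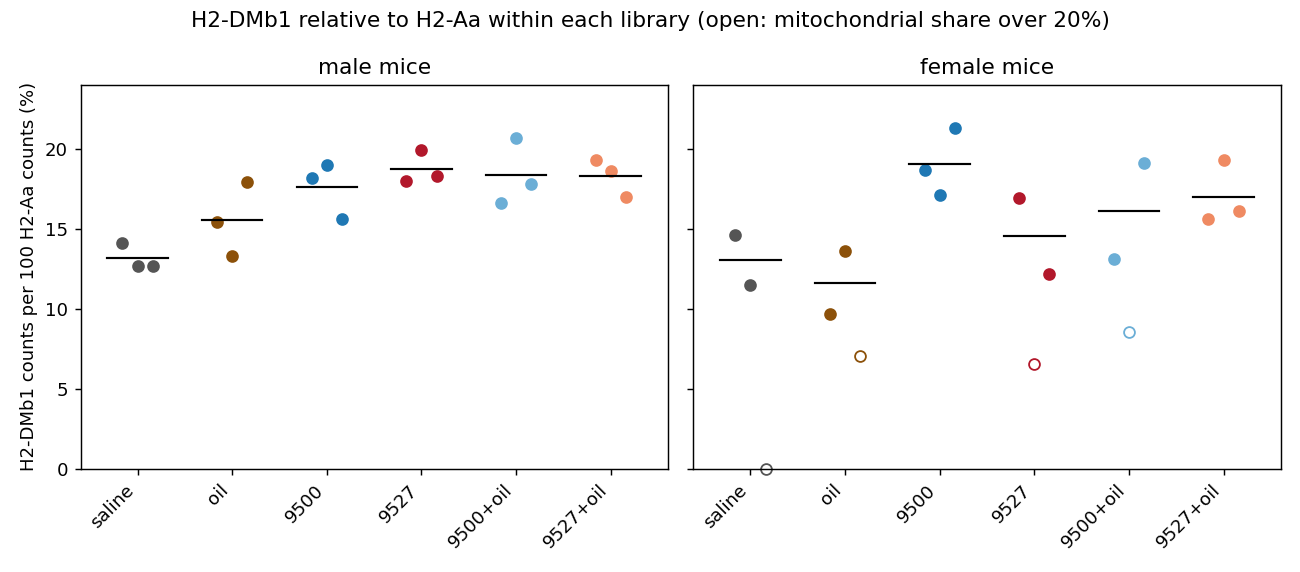
H2-DMb1 count as a percentage of the H2-Aa count (vertical axis from 0) in each male and female mouse by treatment, with a line at the mean of the filled points. Open points are the 4 female libraries with a mitochondrial share over 20%. Male saline mice lie at 12.7% to 14.1%, below all 12 male mice given a dispersant with or without oil (Corexit 9500 mouse 9 falls inside the saline range once H2-DMb2 is added), and the open points lie at 0% to 8.54%.

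In female mice 0 of the 7 genes were called against saline with any treatment in edgeR's test, as were 0% of all genes, and 0 of the 7 had an unadjusted p under 0.05. The median log2 fold change was 0.40 for the Corexit 9500 and 9527+oil groups, 0.19 for 9500+oil, 0.12 for Corexit 9527 and 0.10 for oil. Female saline mouse 3, one of the 4 libraries above, weighed on all of these. It had 76.5 CPM of H2-Aa against 354 and 396 in the other saline mice, 277 CPM of Cd74 against 1384 and 1545, 2.33 CPM of H2-DMa against 76.7 and 59.7, and 0 counts of H2-DMb1 against 51.7 and 45.6 CPM. The SE of H2-DMb1 was 1.44 to 1.71 on the log2 scale in the 5 female comparisons, against 0.10 to 0.13 in males.

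The genes were low in all 4 of these libraries. The median of the other 14 female libraries was 1.54 times their median for H2-Ab1, 2.02 times for H2-Eb1, 2.47 times for Cd74, 3.03 times for H2-Aa, 3.36 times for Ciita, 6.28 times for H2-DMa and 6.37 times for H2-DMb1. The part of the mitochondrial share or of the loss of GC-rich counts in these levels was not tested. The other class II genes differed among themselves. H2-Oa had 0.233 to 1.35 CPM in the 4 libraries and 4.18 to 15.2 CPM in the other 14, and H2-DMb2 had 8.96 to 17.4 CPM and 16.4 to 55.4 CPM. H2-Ob had 40.8 to 104 CPM in the 4 libraries and 19.4 to 46.2 CPM in the other 14, and H2-Eb2 had 0 to 5.23 CPM and 1.22 to 3.85 CPM, with overlap for each of these except H2-Oa.

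Without the 4 libraries, the female medians were 0.05 for Corexit 9500, -0.06 for 9527+oil, -0.00 for 9500+oil, 0.13 for Corexit 9527 and -0.02 for oil. None of the 7 was called, where 0.0132% of all genes were with 9527+oil and 0% with the other 4 treatments. The 2 female oil mice that remained had 374 and 402 CPM of H2-Ab1, below the 455 and 442 CPM of the 2 saline mice. With 9527+oil, 3 genes had an unadjusted p under 0.05, where 12.3% of all genes did. Ciita had 38.7, 41.1 and 39.2 CPM against 34.7 and 27.2 CPM with saline (log2 fold change 0.36 ± 0.13, edgeR adjusted p = 0.357). H2-Aa had 311, 252 and 312 CPM against 354 and 396 (-0.36 ± 0.14, edgeR adjusted p = 0.379), and H2-Eb1 had 156, 134 and 176 CPM against 184 and 210 (-0.34 ± 0.14, edgeR adjusted p = 0.396). With all 3 saline mice, Ciita was the 1 member with every female 9527+oil mouse above every saline mouse, as were 10.9% of all genes, while the fitted changes of H2-Aa and H2-Eb1 were 0.08 and 0.09.

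Corexit 9500 mouse 7 stood apart from its group. It had 3065 CPM of Cd74 against 1279 and 1635 CPM in mice 8 and 9, 97.4 CPM of H2-DMb1 against 45.8 and 61.1, and 522 CPM of H2-Aa against 268 and 287. Its Ciita level of 18.6 CPM was, by contrast, the lowest of the 14 libraries. In the ratio of H2-DMb1 to H2-Aa the 3 Corexit 9500 females were at 18.7%, 17.1% and 21.3%, and the 9527+oil females at 15.6%, 19.3% and 16.1%, all above the female saline mice at 14.6%, 11.5% and, in mouse 3, 0%. The other 3 female groups overlapped saline, with and without the 4 libraries. The Corexit 9527 females were at 16.9%, 6.55% and 12.2%, the 9500+oil females at 13.1%, 8.54% and 19.1% and the oil females at 9.67%, 13.6% and 7.05%. The ratio of H2-DMa to H2-Aa overlapped saline in all 5 female groups, with and without the 4 libraries. Without them it was 15.1% to 21.7% with saline, 20.3% to 27.1% with Corexit 9500, 14.5% to 16.8% with Corexit 9527, 18.9% to 34.4% with 9500+oil, 19.5% to 25.3% with 9527+oil and 12.9% to 17.1% with oil. The ratio of Cd74 to H2-Aa without the 4 libraries was 390% to 391% with saline, overlapped by oil (387% to 427%) and Corexit 9527 (367% to 492%), and it was above saline with Corexit 9500 (477% to 587%), 9500+oil (396% to 611%) and 9527+oil (416% to 544%).

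**Figure D4:**
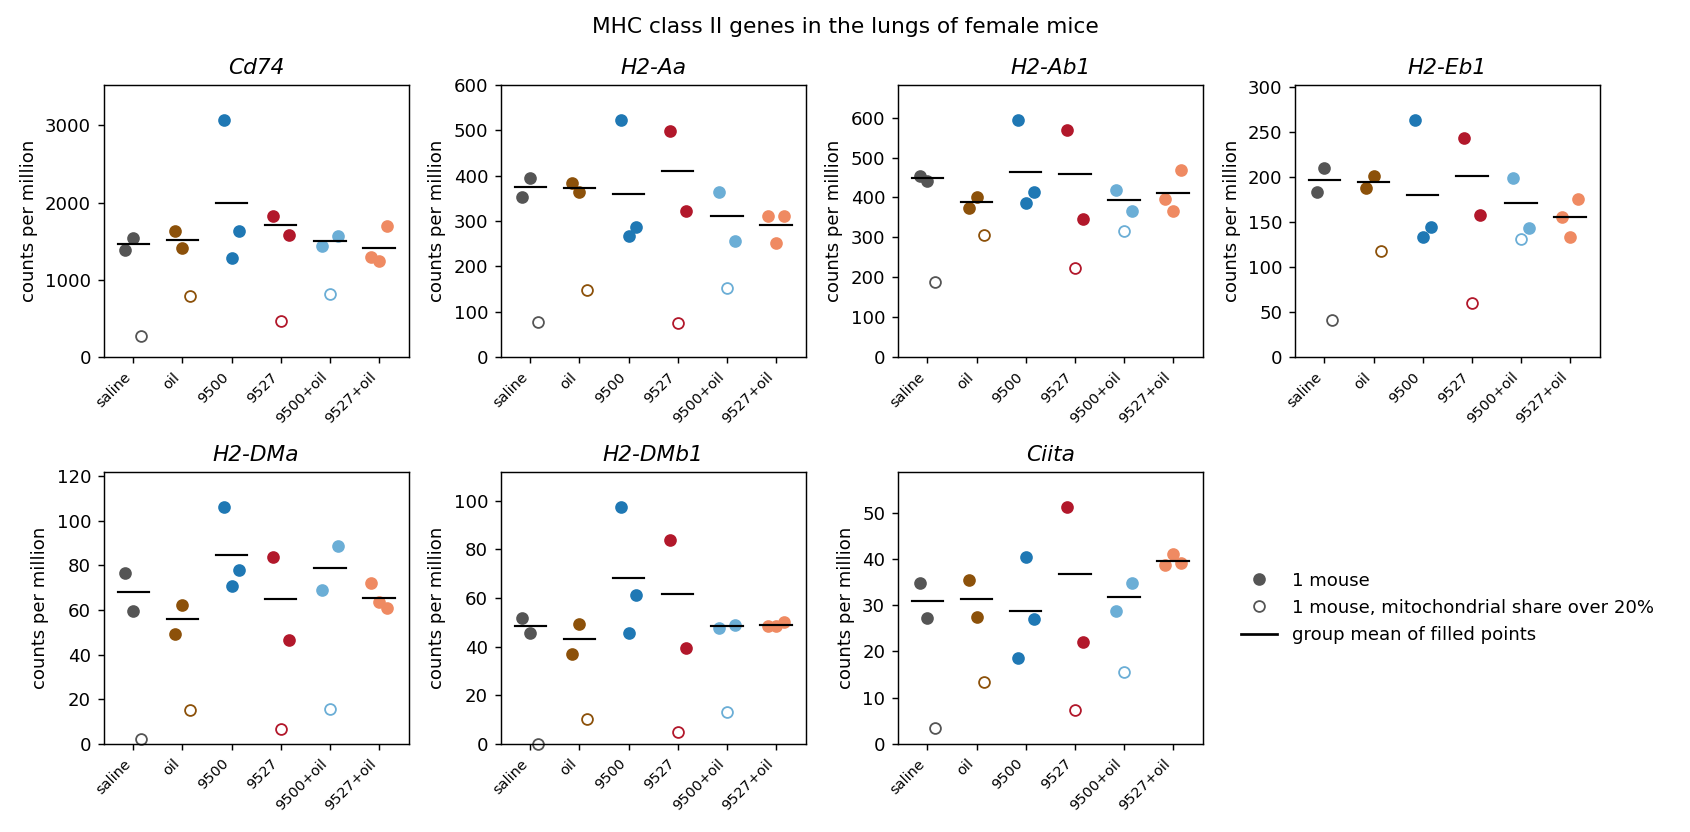
Level of each MHC class II gene in CPM (vertical axes from 0) in each of the 18 female mice by treatment. Open points are the 4 libraries with a mitochondrial share over 20%, and lines are means of the filled points. The open point is the lowest of its group for every gene, at 0 for H2-DMb1 in saline mouse 3, and Corexit 9500 mouse 7 is the highest point for Cd74 at 3065.

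Over both sexes, with sex as a covariate, 0 of the 7 genes were called with any of the 5 treatments. The share of all genes called was 0.0326% with Corexit 9527 and 0% with the other 4. The medians were 0.24 for Corexit 9527, 0.23 for Corexit 9500, 0.23 for 9527+oil, 0.21 for oil and 0.16 for 9500+oil, and 0 of the 7 had an unadjusted p under 0.05. Without the 4 libraries the medians were 0.24, 0.08, 0.01, 0.18 and 0.04 in that order. In that fit 1 to 3 members per treatment had an unadjusted p under 0.05, and none was called, where 2.13% of all genes were with Corexit 9527 and 0% with the other 4 treatments. With oil it was Cd74 (0.31 ± 0.10, edgeR adjusted p = 1), where 2.52% of all genes did so. With Corexit 9500 they were H2-DMb1 (0.45 ± 0.16) and H2-DMa (0.33 ± 0.13), where 5.62% of all genes did so. With Corexit 9527 they were H2-DMb1 (0.47 ± 0.17, edgeR adjusted p = 0.208) and Cd74 (0.26 ± 0.10), where 15.6% of all genes did so. With 9500+oil it was H2-DMa (0.32 ± 0.11), where 7.16% of all genes did so. With 9527+oil they went both ways, H2-DMb1 at 0.21 ± 0.09, H2-Aa at -0.22 ± 0.09 and H2-Eb1 at -0.20 ± 0.09, where 10.6% of all genes did so.

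The difference between the sexes in the response was tested as an interaction, male minus female. For each treatment 0 of the 7 genes and 0% of all genes were called, and 0 of the 7 had an unadjusted p under 0.05. The median interaction was 0.21 for oil, -0.41 for Corexit 9500, 0.05 for Corexit 9527, -0.06 for 9500+oil and -0.19 for 9527+oil, and all 7 genes were below 0 with Corexit 9500 and with 9527+oil. Without the 4 libraries the medians were 0.43, 0.05, 0.10, 0.11 and 0.26 in the same order, and all 7 genes were above 0 with oil. In that fit 4 members had an unadjusted p under 0.05 with oil, where 5.98% of all genes did, and 0 had with the other treatments. They were H2-Ab1 at 0.66 ± 0.16 (unadjusted p = 0.00224, edgeR adjusted p = 0.762), H2-DMa at 0.80 ± 0.25, H2-DMb1 at 0.68 ± 0.24 and Cd74 at 0.43 ± 0.17. The female arms then held 2 mice each. None of these differences passed the adjusted threshold, where 0.00642% of all genes did with oil, 0.0064% with 9527+oil and 0% with the other 3 treatments.

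Adding oil to a dispersant was compared with the dispersant alone over both sexes. For 9500+oil against Corexit 9500, all 7 genes had a lower fitted level, with a median of -0.25 (6 of 7 lower and -0.13 without the 4 libraries), and none of the 7 and 0% of all genes were called. H2-DMb1 was at -0.49 ± 0.30 (unadjusted p = 0.13, edgeR adjusted p = 1) and Ciita at -0.03 ± 0.22. Without the 4 libraries the 7 genes ran from -0.27 to 0.10 in this comparison. For 9527+oil against Corexit 9527 the median was -0.04 and none of the 7 was called, where 0.559% of all genes were. Without the 4 libraries the median of the second comparison was -0.25, and H2-Aa (-0.31 ± 0.12, edgeR adjusted p = 0.144) and H2-Eb1 (-0.28 ± 0.12, edgeR adjusted p = 0.169) had an unadjusted p under 0.05, where 25.6% of all genes did. None of the 7 was called in that fit, where 6.63% of all genes were.

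In the order of the 6 group means in male mice, oil was highest for Cd74, H2-Aa, H2-Ab1, H2-Eb1 and H2-DMa, and Corexit 9527 for H2-DMb1 and Ciita. Saline was lowest for Cd74, H2-Ab1, H2-DMa and H2-DMb1, 9500+oil for H2-Aa and H2-Eb1, and Corexit 9500 for Ciita. The highest group mean was 1.14 times (Ciita) to 1.47 times (H2-DMb1) the lowest. Most neighbours in the order overlapped. The neighbours without overlap were Corexit 9527 over Corexit 9500 and Corexit 9500 over 9500+oil for H2-Ab1, Corexit 9500 over saline for H2-DMa and 9500+oil over saline for H2-DMb1. In female mice without the 4 libraries, all neighbouring groups overlapped for all 7 genes.

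The list of other class II genes held 6 symbols, of which 4 were in both tables. In male saline mice H2-Ob, a chain of H2-DO that restrains H2-DM, had 37.9 ± 19.6 CPM (SD, n = 3) and its partner H2-Oa 9.45 ± 4.41 CPM. H2-DMb2 had 29.4 ± 11 CPM and H2-Eb2 2.77 ± 0.62 CPM. With oil they had 37.5 ± 13.5, 10.8 ± 2.76, 36.6 ± 8.05 and 2.91 ± 1.08 CPM in the same order. Each of these differences was smaller than the spread, and 0 of the 4 were called or had an unadjusted p under 0.05 with any treatment in male mice. H2-Ea was not analysed here.

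Of the 14 tested genes that control class II transcription (the RFX and NF-Y subunits, Creb1 and genes of interferon gamma signaling), 9 were higher and 5 lower with oil in male mice, with a median of 0.06, and 0 were called or had an unadjusted p under 0.05. Socs1, an inhibitor of cytokine signaling, was at 0.64 ± 0.39, the lowest p of the list (edgeR adjusted p = 0.754). With Corexit 9527 the median was 0.01, and Irf1, a factor of the interferon response, was at -0.30 ± 0.10 (unadjusted p = 0.0164, edgeR adjusted p = 0.238). Among 11 interferon gamma response genes, 4 were higher and 7 lower with oil, with a median of -0.04 and 0 called. Cxcl9, a chemokine for T cells, was at 2.52 ± 0.32 (edgeR adjusted p = 0.106) with oil and at 1.74 ± 0.48 (edgeR adjusted p = 0.172) with Corexit 9527. With Corexit 9500, 9 of the 11 were lower, and Irgm1, Gbp7 and Gbp2, GTPases of that response, were at -0.39, -0.31 and -0.30 (edgeR adjusted p from 0.688 to 0.755).

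Proteases that cut antigen and the invariant chain in the endosome were read as a list. Of 9 tested, 7 were higher with oil in male mice and all 7 of those had an unadjusted p under 0.05 (8.21% of all genes did), with a list median of 0.36 and 0 called. Ctss, the protease that removes the invariant chain, was at 0.66 ± 0.17, Ctsb at 0.51 ± 0.12 and Ctsz at 0.40 ± 0.10 (edgeR adjusted p from 0.314 to 0.345). With Corexit 9527, 7 were higher and 6 had an unadjusted p under 0.05 (13.7% of all genes did), with a median of 0.38. Ctsh was at 0.76 ± 0.11 (edgeR adjusted p = 0.0558), Ctsz at 0.64 ± 0.11 (edgeR adjusted p = 0.056) and Lgmn at 0.53 ± 0.10 (edgeR adjusted p = 0.0819). The median of the list was 0.23 for Corexit 9500, 0.16 for 9500+oil and 0.14 for 9527+oil in male mice. In female mice with all libraries 5 were higher and 4 lower with oil, with a median of 0.01, and 8 were higher and 1 lower with Corexit 9527, with a median of 0.17 and 0 with an unadjusted p under 0.05 in either. Of 6 co-stimulatory genes, Pdcd1lg2, which encodes the ligand PD-L2, had the lowest p with oil, at 1.22 ± 0.47 (edgeR adjusted p = 0.531), and with Corexit 9527 (edgeR adjusted p = 0.182). The medians of the list were 0.17 and 0.20. Of the 15 class I presentation genes, 14 were higher with oil, with a median of 0.11, and B2m, the light chain of class I, was at 0.45 ± 0.11 (edgeR adjusted p = 0.319).

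Markers of class II bearing cells were read in the same libraries. With oil in male mice, 12 of 15 dendritic cell genes were higher (median 0.32, 4 with an unadjusted p under 0.05, where 8.21% of all genes had one), with a summed level of 430 to 514 CPM against 399 to 448 CPM with saline. Itgax, the CD11c integrin, was at 0.66 ± 0.10 (edgeR adjusted p = 0.169). Of 10 alveolar macrophage genes 8 were higher (median 0.31, 6 with an unadjusted p under 0.05), with 993 to 1094 CPM against 722 to 930 CPM. Of 10 interstitial macrophage genes 7 were higher (median 0.72, 6 with an unadjusted p under 0.05), with 767 to 951 CPM against 637 to 766 CPM. C1qb, a complement subunit, was at 1.10 ± 0.19 (edgeR adjusted p = 0.184). The 13 B cell genes had a median of 0.18, 0 with an unadjusted p under 0.05, and a summed level of 603 to 896 CPM inside the saline range of 378 to 981 CPM. All 7 endothelial genes were lower with oil (median -0.18), with 4183 to 4318 CPM against 4371 to 5102 CPM with saline, and 5 of 6 airway club and ciliated cell genes were lower (median -0.17), with 17510 to 20931 CPM against 19846 to 24981 CPM. Their part in the class II levels was not tested.

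With Corexit 9527 in male mice, 11 of 15 dendritic cell genes were higher (median 0.39, 6 with an unadjusted p under 0.05, where 13.7% of all genes had one), with 440 to 528 CPM, and Mgl2 and Ccl22, a lectin and a chemokine of these cells, were at 0.94 ± 0.19 and 1.41 ± 0.31 (edgeR adjusted p = 0.0951 and 0.114). Alveolar macrophage genes had a median of 0.32 and summed to 936 to 1724 CPM. All 10 alveolar type 2 genes were higher (median 0.27, 4 with an unadjusted p under 0.05), though the summed level of 20060 to 28112 CPM overlapped the 21926 to 22090 CPM of saline. All 7 endothelial genes were lower (median -0.41), with 3624 to 3692 CPM against 4371 to 5102 CPM with saline. All 6 airway club and ciliated cell genes were lower (median -0.27), with 14955 to 18213 CPM against 19846 to 24981 CPM. All 5 red blood cell genes were lower (median -1.09), with 2720 to 6784 CPM against 7527 to 12552 CPM. All 5 cardiac muscle genes were lower both with Corexit 9527 (median -0.65, 172 to 329 CPM against 268 to 432 CPM) and with oil (median -0.56, 214 to 259 CPM). The part of these cells in the class II levels was not tested. With 9527+oil the medians were 0.08 for dendritic cells, 0.04 for alveolar macrophages and -0.08 for B cells. None of these markers was called, and no gene of these lists was under 0.1 CPM in every mouse of a group. Neutrophil genes summed to 252 to 280 CPM with saline and to 314 to 992 CPM with oil and 111 to 253 CPM with Corexit 9527.

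The genes whose level across mice was most like the members were ranked by the lower of 2 Pearson correlations, over the 18 male mice and over the 14 female mice outside the 4 libraries, with the mean of the standardised levels of 6 members (all but Ciita). Of 13903 genes, the 8 highest were Gatm (0.81 in female and 0.83 in male mice), Il4i1 (0.79 and 0.79), Chil1 (0.75 and 0.82), Atox1 (0.80 and 0.74), Tnfrsf9 (0.74 and 0.78), Lcn2 (0.74 and 0.73), Ccl22 (0.82 and 0.73) and Ctsb (0.77 and 0.73). The 99th percentile of all genes was 0.56. The 6 members are part of the mean, which raises their own correlations, and these ran from 0.67 in female and 0.71 in male mice (H2-DMa) to 0.95 and 0.93 (H2-Ab1) and 0.85 and 0.97 (Cd74). Ciita, which was not part of the mean, had -0.25 and 0.55. These values describe likeness over mice that share treatments and library quality. With all 18 female libraries, 2 of the 8 were still among the highest 8, and with Spearman's correlation 2 were.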

How the data were processed

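Per the labels, RNA of the lung was sequenced by Illumina protocols. The authors estimated reads per transcript with Salmon on GRCm38 and combined them with tximport into expected counts, deposited without normalization as separate tables for female and male mice, in which the values were already whole. Of the names, 95.3% matched GENCODE M21. Each table had 4 rows under repeated names that a spreadsheet had turned into dates, and these were left out, with 0.0103% (female) and 0.0128% (male) of counts. The lowest row sum was 10 in each table. Repeated libraries were checked over 153 pairs of mice in each table, and the lowest chi-square per gene was 11.4.

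Tests were run in R 4.3.3 with edgeR 4.0.16 (TMM scaling, filterByExpr, quasi-likelihood F-test, Benjamini-Hochberg adjustment), tested first on simulated data. The groups compared entered each fit, with sex as a covariate over both sexes. Alternatives used DESeq2 1.42.0, limma 3.58.1, other scalings and filters, and fits without each mouse. Standard errors are the log2 fold change divided by the root of F. CPM use the scaled library sizes. Ratios of counts within a library are given with no test.

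All 7 members are named in every comparison, the other class II genes with their levels, and up to 3 members with the smallest p of each further list. The members and lists were chosen with earlier results of these data known. Counts per mouse ran from 17501180 to 30011557. With 3 mice per group, each p-value of edgeR sets a group difference against the spread between mice. That spread was estimated partly from the other genes.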

Additional observations from a re-analysis of the deposited data

How the results depend on the processing

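Over the other scalings, filters, tests and sample sets, the number of members called stayed at 0 in 197 fits and moved in 3. With DESeq2's Wald test it was 3 for oil and 2 for Corexit 9527 in male mice, and with all 6 groups in 1 fit it was 1 for Corexit 9527 in male mice. Without 1 mouse each, in 204 fits it ran from 0 to 0. Signs turned, to an unadjusted p under 0.05, in few cases. Without the 4 female libraries over the mitochondrial limit, and without female saline mouse 3 alone, 9527+oil gave -0.36 for H2-Aa and -0.34 for H2-Eb1 in female mice and -0.20 for H2-Eb1 over both sexes. Over all fits without 1 mouse, H2-Eb1 with 9527+oil ran from -0.34 to 0.46 in female mice and from -0.20 to 0.16 over both sexes, the highest without female saline mouse 2. H2-Aa with 9527+oil ran from -0.36 to 0.44 in female mice. With limma's voom and sample quality weights, Corexit 9500 gave -0.43 for H2-Eb1 in female mice and 0.44 for its sex difference. The cause was not tested. The number of all genes called moved more. Corexit 9527 in male mice gave 17 genes in edgeR, 587 in DESeq2, 111 in voom, 284 with all groups in 1 fit, 70 without a filter and 45 with GC and length offsets. Leaving out 1 mouse gave between 0 (without male saline mouse 2 or mouse 3) and 211 genes, the latter without male Corexit 9527 mouse 12. For 9527+oil against Corexit 9527 there were 86 genes in edgeR, 629 in DESeq2, 1570 in voom, 1039 without female Corexit 9527 mouse 11 (1 of the 4 libraries) and 0 without female or male 9527+oil mouse 16. Over both sexes, Corexit 9527 gave 5 in edgeR, 127 in DESeq2, 796 in voom and 331 without the 4 libraries. No paired analysis was possible because the groups compared within a sex share no mouse number, and a number shared between the sexes marks mice that were treated separately.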
